A study of Mus musculus with 35 samples.

Results

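The 8 genes described here encode extracellular proteins of the vessel wall that are not its main structural fibres, or that organise those fibres: the thrombospondins Thbs1, Thbs2 and Thbs4, tenascin C (Tnc), periostin (Postn), fibronectin (Fn1), Sparc and the cartilage intermediate layer protein Cilp. They were taken by gene name from the array annotation, which gave 17 probes for the 8 genes, among 18672 genes that could be tested. Each of the 35 arrays carried RNA of 1 whole suprarenal aorta from a male ApoE-/- mouse, the hyperlipidaemic strain in which angiotensin II (Ang II) infusion produces abdominal aortic aneurysms. All groups shared the ApoE-/- genotype, the sex and a subcutaneous osmotic minipump implanted at 12 to 14 weeks of age, and they differed in what the pump held and for how long. The Ang II groups received 1000 ng/kg/min and comprised 3 dissected aortas at 7 days, 4 aortas at 7 days labelled as aneurysms without dissection, 5 aortas at 14 days and 6 aortas at 28 days. The saline groups comprised 6, 6 and 5 aortas at 7, 14 and 28 days. The tissue was taken after perfusion with saline and holds all cells of the wall and whatever adhered to it. Aorta RNA was labelled with Cy5 and hybridised against one Cy3-labelled commercial mouse reference RNA, so each value below is a log2 ratio of aorta over that reference for 1 gene, and the ratios of different genes are not compared as levels.

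Matricellular proteins such as thrombospondins, tenascin C, periostin and Sparc bind cell-surface integrins and other matrix proteins and alter how cells attach, migrate and respond to growth factors, and they are typically scarce in quiescent adult tissue and abundant in healing wounds. Fibronectin is a fibril-forming glycoprotein on which other matrix proteins assemble, and Cilp is a matrix glycoprotein first described in cartilage that is also made by fibroblasts of stressed heart. In the arterial wall the sources include adventitial fibroblasts, smooth muscle cells, endothelium and, for thrombospondin 1, platelets.

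The probes that measured these transcripts are 60-base oligonucleotides, and 6 of the 17 have genome coordinates on build mm8 that span more bases than the probe itself holds, so that they read across an intron of the gene. Those 6 are shown because they are the ones placed by their coordinates on joined exons, in lower case and 5′ to 3′ in the sense of the transcript. Probes of a gene are numbered by brightness, and probe 1 gives the value of the gene.
Fn1 probe 1 (A_51_P100856, chr1:71524056-71526293, minus strand): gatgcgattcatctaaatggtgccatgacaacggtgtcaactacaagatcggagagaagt
Fn1 probe 4 (A_52_P299974, chr1:71560522-71561280, minus strand): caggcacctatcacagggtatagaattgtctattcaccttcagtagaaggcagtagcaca
Thbs2 probe 1 (A_51_P461877, chr17:14404116-14405379, minus strand): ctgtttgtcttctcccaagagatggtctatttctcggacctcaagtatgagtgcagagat
Sparc probe 1 (A_52_P101852, chr11:55239370-55242027, minus strand): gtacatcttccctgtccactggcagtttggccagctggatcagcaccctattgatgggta
Tnc probe 3 (A_52_P355169, chr4:63499575-63500338, minus strand): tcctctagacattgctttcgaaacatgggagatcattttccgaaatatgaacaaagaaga
Thbs1 probe 3 (A_52_P337092, chr2:117812417-117812597, plus strand): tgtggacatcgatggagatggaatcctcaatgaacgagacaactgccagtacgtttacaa
The coordinates of the other probes span no more bases than the probe holds, and those of the brightest Tnc probe cover 46 of its 60 bases. The brightest probe of Thbs1 is at chr2:117817480-117817539 on the plus strand, that of Thbs4 at chr13:93852363-93852422 on the minus strand, and that of Tnc at chr4:63446146-63446191 on the minus strand. The Postn probe is at chr3:54478490-54478549 and the Cilp probe at chr9:65078206-65078265, both on the plus strand. Which exon or untranslated region each position belongs to was not analysed here, since no annotation of that build was used.

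Promoter sequence was read from a RefSeq table of build GRCm38.p6, which held entries for 6 of the 8 genes (8 start sites). The 4 printed belong to genes that rose at 7 days, though Sparc, which also rose, is not printed. Each covers the 250 bases before the annotated start. Capitals mark matches, on either strand, to the 6 motifs that are spelled out after the sequences.
Thbs2 (chr17:14694263-14694512, minus strand): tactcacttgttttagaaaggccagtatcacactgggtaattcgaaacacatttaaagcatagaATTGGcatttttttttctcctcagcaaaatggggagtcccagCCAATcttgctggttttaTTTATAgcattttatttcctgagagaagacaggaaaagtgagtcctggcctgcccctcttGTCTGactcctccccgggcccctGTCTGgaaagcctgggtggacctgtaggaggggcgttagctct
Tnc, entry 1 (chr4:64046937-64047186, minus strand): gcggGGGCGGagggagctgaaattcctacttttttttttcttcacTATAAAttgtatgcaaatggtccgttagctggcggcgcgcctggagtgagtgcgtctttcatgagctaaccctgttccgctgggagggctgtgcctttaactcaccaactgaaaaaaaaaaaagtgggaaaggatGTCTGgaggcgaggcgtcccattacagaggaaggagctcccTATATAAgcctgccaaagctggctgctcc
Postn, entry 2 (chr3:54360857-54361106, plus strand): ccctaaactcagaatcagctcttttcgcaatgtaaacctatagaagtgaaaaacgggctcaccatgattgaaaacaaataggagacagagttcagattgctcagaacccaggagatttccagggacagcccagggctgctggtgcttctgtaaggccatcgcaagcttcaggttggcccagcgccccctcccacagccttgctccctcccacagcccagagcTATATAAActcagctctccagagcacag
Cilp (chr9:65264930-65265179, plus strand): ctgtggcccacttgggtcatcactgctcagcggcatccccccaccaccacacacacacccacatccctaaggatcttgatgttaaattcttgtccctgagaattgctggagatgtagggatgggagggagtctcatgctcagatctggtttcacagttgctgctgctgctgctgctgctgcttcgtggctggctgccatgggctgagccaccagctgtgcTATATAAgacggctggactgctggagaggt
Tnc, Postn and Cilp each held TATATAA, a form of the TATA box, beginning 29, 28 and 30 bases before the start, and in Postn it overlapped TATAAA at 26 bases. TATATAA occurred anywhere in the same window in 3.04% of 32841 promoters, and it was added to the search after these sequences had been read. Of the 8 windows 3 held it, and those of Sparc, Thbs2, Thbs4, the second Tnc entry and the first Postn entry did not. The other shares of all promoters were 12.4% for TATAAA, 33.9% for CCAAT (the CCAAT box), 6.75% for TGANTCA (the AP-1 site), 42.2% for CAGAC (the Smad box) and 32.7% for GGGCGG (the GC box). Thbs2 held CCAAT on the opposite strand at 186 bases and on the sense strand at 144 bases, and CAGAC on the opposite strand at 66 and 43 bases. CAGAC was in 5 of the 8 windows, TATAAA in 4, GGGCGG in 3, CCAAT in 1 and TGANTCA in 0. A match is a description of letters and says nothing of whether a factor binds there.

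Between 45.0% and 84.8% of an array's spots had an aorta signal clearly over their local background, with a median of 57.1%, and the probe taken for each of the 8 genes was well above background on 35 of 35 arrays. Arrays were scanned on 2 days: all 3 dissected aortas on the second, 3 of the 4 other Ang II aortas at 7 days on the first, and every other group on both. In 4 arrays the spread of log2 ratios over all genes stood apart, narrow in 7-day saline replicate 5 and 28-day saline replicates 2 and 4, and wide in 14-day Ang II replicate 4. All 10 smooth muscle markers on the list, such as Myh11 and Acta2, were above background in every group.

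At 7 days of Ang II most of the set was higher. Of the 8 genes, 7 were higher in non-dissected Ang II aortas than in saline aortas at an adjusted p under 0.05, none was lower, and the median difference over the 8 was 1.92 on the log2 scale, against -0.00367 over all genes tested. Over all genes, 14.5% were called higher in this comparison. In 6 of the 8 genes no Ang II array overlapped a saline array, with the Ang II values higher, which held for 12.2% of all genes. At 14 days 1 gene was called higher (Cilp), where 1.12% of all genes were, and at 28 days 1 was (Thbs1), where 0.841% of all genes were. Averaged over the 3 times, all 8 genes were called higher, where 15.7% of all genes were. In dissected aortas only Thbs2 was called higher than in saline, where 18.9% of all genes were, and all 8 genes had lower means than in non-dissected Ang II aortas of the same time. In bulk tissue a gain in cells of one type and a gain in RNA per cell cannot be told apart.

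**Figure D1:**
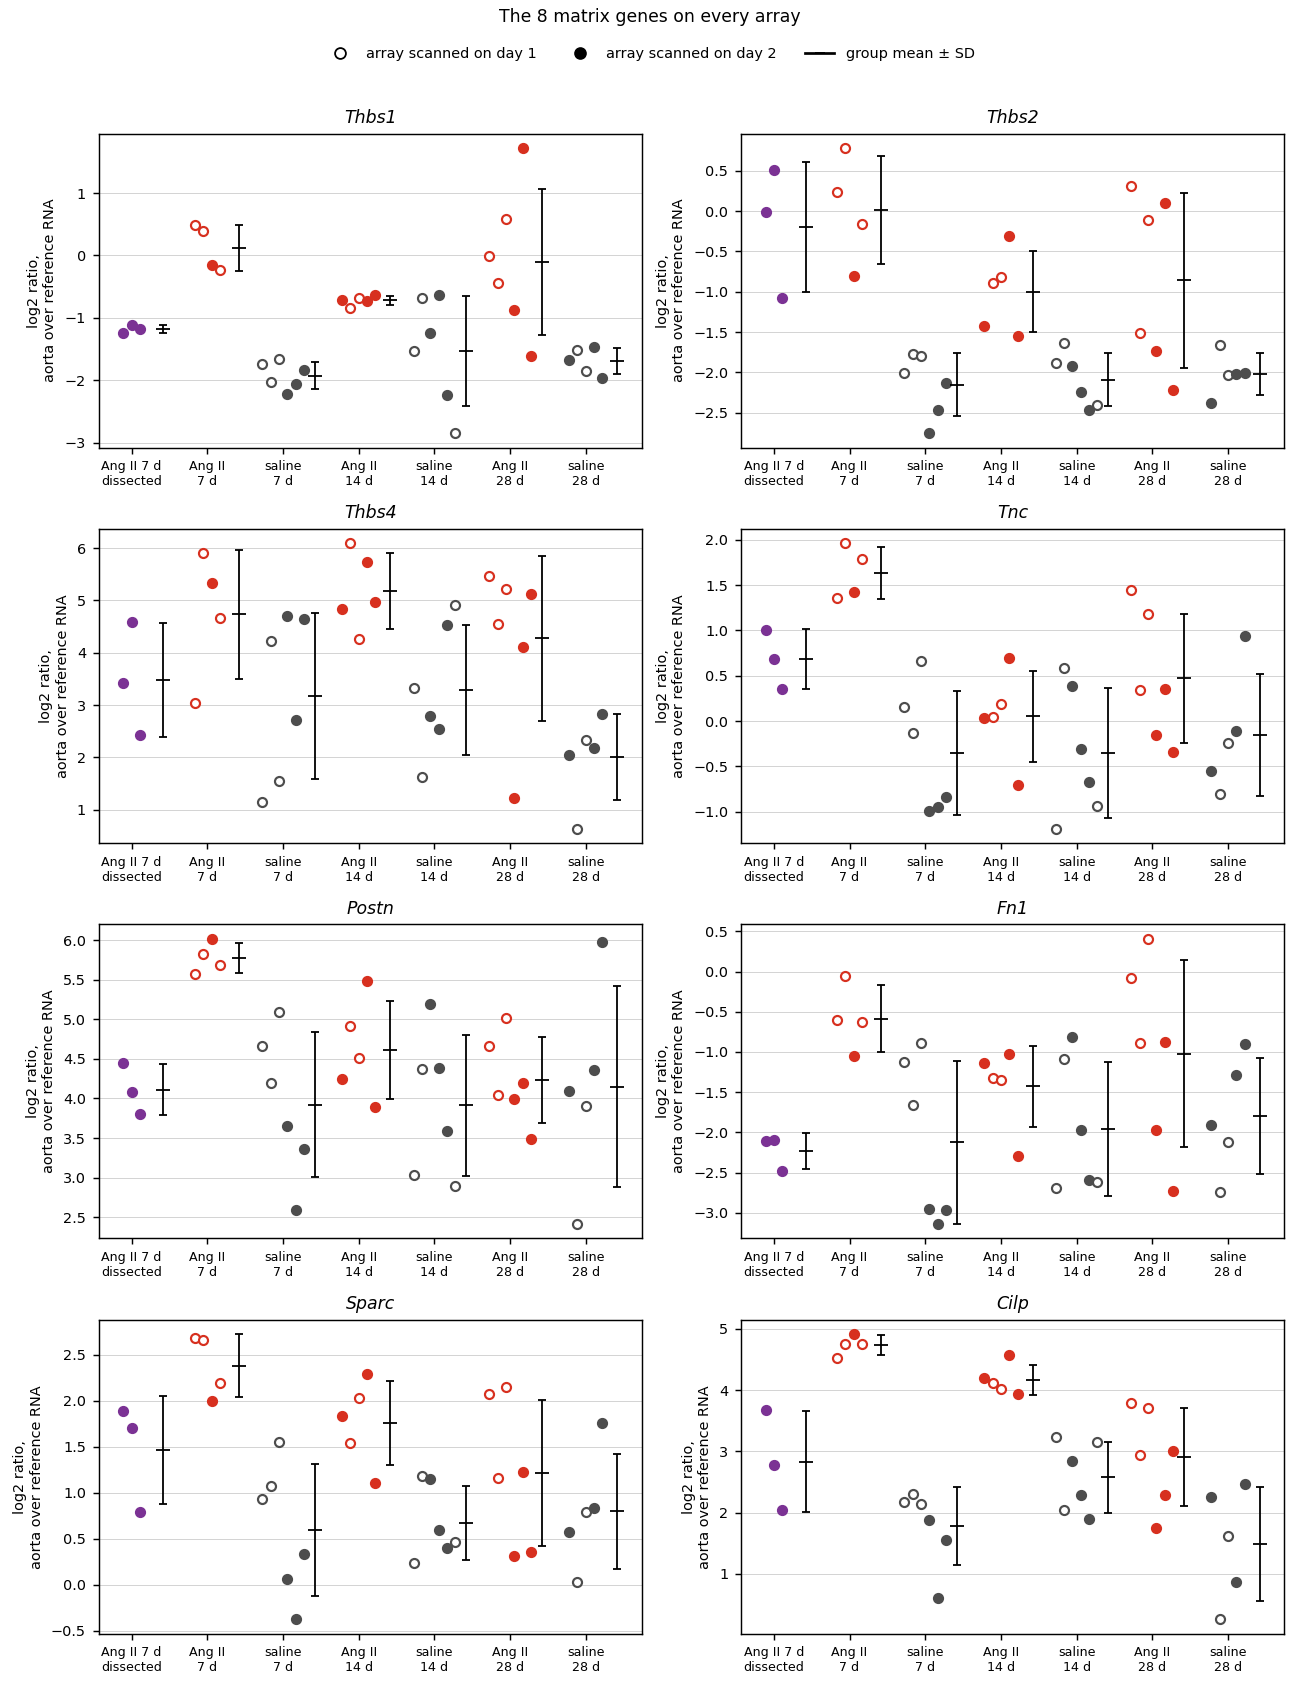
Log2 ratio of aorta over the reference RNA for each of the 8 genes, 1 point per array and a bar at the group mean, with the groups along the axis. Cilp in the 4 non-dissected Ang II aortas at 7 days lies between 4.53 and 4.92, above all 6 saline aortas of that time, whose highest value is 2.31.

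**Figure D2:**
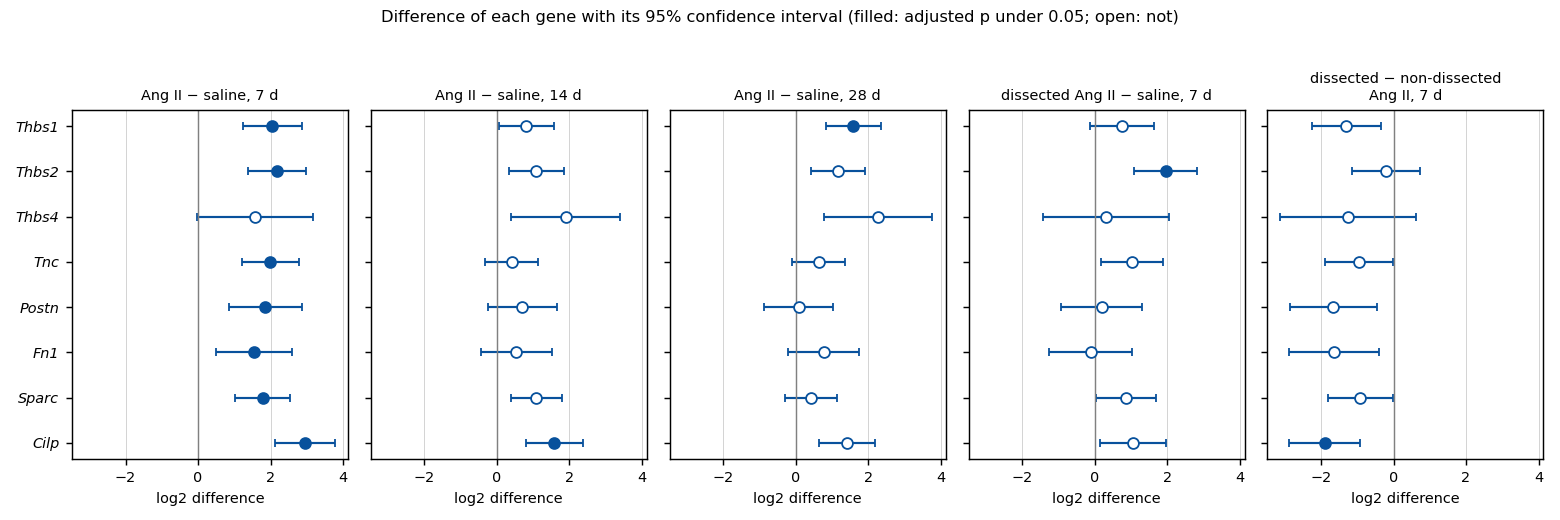
Fitted log2 differences of the 8 genes for each comparison, with bars for the 95% interval. Every 7-day difference between Ang II and saline lies above 0, from 1.54 for Fn1 to 2.96 for Cilp, and every dissected minus non-dissected difference lies below 0.

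Thbs1 encodes a secreted trimeric glycoprotein that activates latent TGF-β and inhibits the growth of new vessels. Its log2 ratio was 0.49, 0.39, -0.16 and -0.23 in the non-dissected Ang II aortas at 7 days, against a lowest value of -2.22, a median of -1.93 and a highest value of -1.66 in saline aortas. The groups did not overlap, and the fitted difference was 2.05 (SE 0.40, adjusted p = 0.00041), a 4.14-fold higher ratio. The dissected aortas lay between them at -1.24, -1.12 and -1.18, above every saline array and below every non-dissected Ang II array. That placed them 0.75 above saline (SE 0.44, adjusted p = 0.184) and 1.30 on the log2 scale below the non-dissected aortas (fitted difference -1.30, SE 0.47, adjusted p = 0.0848), and neither difference was called.

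At 14 days Thbs1 stood at -0.71, -0.84, -0.68, -0.73 and -0.64 in Ang II aortas, a narrow band, against a lowest value of -2.85, a median of -1.39 and a highest value of -0.63 in saline. The saline arrays spread over a wider range that took in the whole Ang II band, and the difference of 0.81 was not called (SE 0.37, adjusted p = 0.241). At 28 days the order of spreads turned round. Ang II aortas ranged from -1.62 to 1.72 with a median of -0.22, against -1.67, -1.52, -1.85, -1.47 and -1.96 in saline, and only the lowest Ang II array lay inside the saline range. The difference of 1.59 was called (SE 0.37, adjusted p = 0.0296). It lost its call without any one of 28-day saline replicates 1, 2, 4 and 5 or 28-day Ang II replicates 1, 3 and 5, with log2 differences of 1.22 to 1.89 and adjusted p of 0.00417 to 0.0979 over all arrays left out in turn. The call was also lost in the fit of the compared groups alone, with median centring and within either scan day. Nor was it made without the 4 arrays of unusual spread, which include 28-day saline replicates 2 and 4. Neither dimmer Thbs1 probe was called in the same comparison. Both were well above background on 6 of 6 Ang II arrays, but on only 1 of 5 saline arrays for the second probe and on 0 of 5 for the third.

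Thbs2, the closest relative of Thbs1 but one that does not activate latent TGF-β, is a fibroblast product that shapes collagen fibrils. It measured 0.23, 0.78, -0.81 and -0.16 in the non-dissected Ang II aortas at 7 days, against a lowest value of -2.76, a median of -2.06 and a highest value of -1.77 in saline, without overlap. The fitted difference was 2.17 (SE 0.39, adjusted p = 0.000183). In dissected aortas it measured -0.01, 0.50 and -1.08, again above every saline array, and 1.96 higher than saline (SE 0.43, adjusted p = 0.000569). The dissected arrays overlapped the non-dissected ones, with a difference of -0.21 (95% interval -1.15 to 0.74, adjusted p = 0.853). The call against saline held whichever array was left out, with differences of 1.61 to 2.40. These comparisons share the 7-day groups, so they are not independent.

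Later, Thbs2 was -1.43, -0.89, -0.82, -0.31 and -1.55 at 14 days of Ang II, against -2.46 to -1.64 with a median of -2.08 in saline. All 5 Ang II arrays lay above all 6 saline arrays, yet the difference of 1.09 missed the threshold (SE 0.37, adjusted p = 0.106). Of the 8 genes, 2 had groups that did not overlap at 14 days, Thbs2 and Cilp, where 1.45% of all genes did so with Ang II higher. At 28 days the Ang II arrays ran from -2.21 to 0.31 with a median of -0.81, against -2.38, -1.66, -2.03, -2.02 and -2.01 in saline. The ranges overlapped and the difference of 1.16 was not called (SE 0.37, adjusted p = 0.123).

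Thbs4 belongs to the pentameric thrombospondins of tendon, heart and vessel wall. It differed from the other 7 genes in how widely the saline aortas themselves varied at 7 days, and its 7-day difference was not called. The non-dissected Ang II aortas at 7 days measured 3.04, 5.90, 5.33 and 4.66, against a lowest value of 1.14, a median of 3.47 and a highest value of 4.70 in saline. The groups overlapped, and the difference was 1.57 (SE 0.78, 95% interval -0.0201 to 3.16, adjusted p = 0.132). At 14 days the arrays read 4.84, 6.09, 4.27, 5.74 and 4.96 in Ang II aortas, against 1.63 to 4.92 with a median of 3.06 in saline, a difference of 1.89 (SE 0.73, adjusted p = 0.157). At 28 days they ran from 1.22 to 5.46 with a median of 4.84 in Ang II aortas, against 2.04, 0.64, 2.34, 2.18 and 2.84 in saline, a difference of 2.27 (SE 0.73, adjusted p = 0.13). The lowest of those Ang II arrays, replicate 4, stood alone inside the saline range, and without it the difference was 2.88 (adjusted p = 0.0316). Thbs4 was the only one of the 8 genes whose highest group mean was not at 7 days of Ang II but at 14 days, and its difference averaged over the 3 times was 1.91 (SE 0.43, adjusted p = 0.00135). Dissected aortas measured 3.42, 4.60 and 2.43, inside the saline range, with a difference from saline of 0.32 (SE 0.85, adjusted p = 0.806). The dimmer Thbs4 probe, fitted among all probes, was called at 7 days (1.74, SE 0.54, adjusted p = 0.0191) and at 28 days (2.50, SE 0.51, adjusted p = 0.0118).

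Tenascin C is a six-armed glycoprotein that loosens cell attachment and appears in remodelling matrix and under mechanical load. Tnc measured 1.36, 1.96, 1.43 and 1.79 in non-dissected Ang II aortas at 7 days, against a lowest value of -0.995, a median of -0.49 and a highest value of 0.66 in saline. Every Ang II array was above every saline array, with a difference of 1.99 (SE 0.39, adjusted p = 0.000406). Dissected aortas measured 1.01, 0.69 and 0.35, below every non-dissected array, and the last of them lay inside the saline range. They were 1.03 above saline (SE 0.42, adjusted p = 0.054) and 0.95 on the log2 scale below the non-dissected aortas (fitted difference -0.95, SE 0.46, adjusted p = 0.217), neither of them called.

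By 14 days Tnc in Ang II aortas was 0.03, 0.05, 0.18, 0.70 and -0.71, against -1.19 to 0.58 with a median of -0.49 in saline, and the ranges overlapped. The 14-day difference was 0.41 (SE 0.36, adjusted p = 0.567). The 28-day arrays ran from -0.34 to 1.44 with a median of 0.35 in Ang II aortas, against -0.56, -0.80, -0.24, -0.11 and 0.94 in saline, and the difference was 0.63 (SE 0.36, adjusted p = 0.429). The 14-day effect minus the 7-day effect was -1.58 for Tnc, the lowest adjusted p of the 8 genes for that difference (0.0992), and it was not called.

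Periostin, a fasciclin-domain protein made by activated fibroblasts, binds tenascin C and assists collagen cross-linking. Postn measured 5.58, 5.82, 6.02 and 5.69 in non-dissected Ang II aortas at 7 days, against a lowest value of 2.59, a median of 3.92 and a highest value of 5.09 in saline. The Ang II arrays were tightly grouped above the whole saline range, with a difference of 1.85 (SE 0.50, adjusted p = 0.00649). Scan day moved with this result: the saline aortas averaged 4.65 on the first day, from which 3 of the 4 Ang II arrays came, and 3.20 on the second. Within the first day the difference was 1.05 and was not called (adjusted p = 0.128). With marker scores of fat, nerve and kidney as covariates it was 1.60, also not called (adjusted p = 0.0539). In dissected aortas the values of 4.45, 4.08 and 3.81 sat in the middle of the saline range, 0.19 above it on average (SE 0.54, adjusted p = 0.82). They were below all 4 non-dissected arrays, with a difference of -1.67 (SE 0.59, adjusted p = 0.0751).

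The later Postn values overlapped the saline range. Ang II aortas at 14 days read 4.24, 4.92, 4.52, 5.49 and 3.89, against 2.89 to 5.19 with a median of 3.98 in saline, a difference of 0.70 (SE 0.46, adjusted p = 0.428). At 28 days they ran from 3.49 to 5.01 with a median of 4.12, against 4.10, 2.41, 3.90, 4.36 and 5.98 in saline, and the difference was 0.08 (95% interval -0.87 to 1.03, adjusted p = 0.968). The highest Postn value of that time belonged to a saline aorta, replicate 5.

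Fibronectin varied more among the 7-day saline aortas than the other 6 genes called at that time, and their values parted by scan day. Fn1 measured -0.60, -0.05, -1.05 and -0.63 in non-dissected Ang II aortas at 7 days, against a lowest value of -3.14, a median of -2.31 and a highest value of -0.89 in saline. The lowest Ang II array lay below the highest saline array, and the difference was 1.54 (SE 0.51, adjusted p = 0.0255). The 3 saline aortas of the first scan day averaged -1.23 and the 3 of the second averaged -3.02. Within the first day the Ang II minus saline difference was 0.80 (adjusted p = 0.239), and within the second, with 1 Ang II array, it was 1.97 (adjusted p = 0.19). With scan day as a term of the model it was 1.41 (adjusted p = 0.0358). The call was lost without any one of 7-day saline replicates 4, 5 and 6 or Ang II replicates 1 and 2, with differences of 1.34 to 1.79 and adjusted p of 0.0103 to 0.0911 over all arrays left out in turn.

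Fn1 was the one gene whose lowest group mean was that of the dissected aortas, at -2.11, -2.09 and -2.48, against -3.14 to -0.89 in saline, a difference of -0.11 (SE 0.56, adjusted p = 0.903). They lay below all 4 non-dissected arrays, by 1.65 on the log2 scale (fitted difference -1.65, SE 0.60, adjusted p = 0.0904). The other Fn1 probes gave -0.33, -0.67 and -0.59 in the same comparison, in order of brightness, none of them called, and on the second-brightest the dissected arrays overlapped the non-dissected ones. The second-brightest Fn1 probe, built on a cDNA clone that the array annotation marks as chimeric and fitted among all probes, gave 1.80 for dissected over saline (SE 0.49, adjusted p = 0.00492), where the brightest gave -0.11 and the other 2 gave -0.13 and 0.33. At 14 days the Ang II arrays read -1.14, -1.32, -1.35, -1.03 and -2.29, against -2.69 to -0.81 with a median of -2.28 in saline, a difference of 0.53 (SE 0.48, adjusted p = 0.571). At 28 days they ran from -2.72 to 0.41 with a median of -0.89, against -1.91, -2.75, -2.12, -1.29 and -0.91 in saline, a difference of 0.77 (SE 0.48, adjusted p = 0.472).

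Sparc binds collagen and calcium and assists the assembly of procollagen into fibrils. It measured 2.69, 2.66, 2.00 and 2.19 in non-dissected Ang II aortas at 7 days, against a lowest value of -0.38, a median of 0.64 and a highest value of 1.55 in saline, without overlap. The difference was 1.79 (SE 0.37, adjusted p = 0.000803), and the second Sparc probe gave 2.15 (SE 0.50, adjusted p = 0.00271). Dissected aortas measured 1.89, 1.71 and 0.79, of which the last lay inside the saline range, and were 0.87 above saline (SE 0.41, adjusted p = 0.0941). All 3 were below the non-dissected arrays, with a difference of -0.92 (SE 0.44, adjusted p = 0.216).

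At 14 days Sparc measured in Ang II aortas 1.84, 1.54, 2.03, 2.29 and 1.11, against 0.24 to 1.18 with a median of 0.53 in saline. One Ang II array overlapped the saline range, and the difference of 1.09 was not called (SE 0.35, adjusted p = 0.0841). At 28 days Sparc ran from 0.31 to 2.15 with a median of 1.19 in Ang II aortas, against 0.58, 0.03, 0.79, 0.84 and 1.76 in saline, and the difference was 0.41 (SE 0.35, adjusted p = 0.627).

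Cilp, a large glycoprotein of the cartilage and heart matrix, had the largest rise of the 8 at 7 days. It measured 4.53, 4.75, 4.92 and 4.75 in non-dissected Ang II aortas at 7 days, against a lowest value of 0.60, a median of 2.01 and a highest value of 2.31 in saline. The gap between the lowest Ang II and the highest saline array exceeded the spread within either group, and the difference was 2.96 (SE 0.41, adjusted p = 5.3e-06), a 7.77-fold higher ratio. Among all genes tested it ranked 44 by size of rise. Dissected aortas measured 3.68, 2.77 and 2.04, the last inside the saline range, and were 1.05 above saline (SE 0.45, adjusted p = 0.0627). They lay below every non-dissected array, and this was the only dissected against non-dissected difference of the 8 that was called (-1.90, SE 0.48, adjusted p = 0.0127), where 4.93% of all genes were called lower and, with none of the 8 among them, 3.12% were called higher. That call was lost without dissected replicate 2 or without dissected replicate 3, with differences of -2.33 to -1.51 and adjusted p of 0.00803 to 0.0963 over all arrays left out in turn.

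At 14 days Cilp was 4.20, 4.11, 4.01, 4.57 and 3.93 in Ang II aortas, against 1.90 to 3.24 with a median of 2.57 in saline. No array overlapped, and the difference was 1.59 (SE 0.38, adjusted p = 0.025). It was not called without 14-day saline replicate 2, or without 14-day Ang II replicate 3 or 4, with differences of 1.45 to 1.72 and adjusted p of 0.0171 to 0.0898. At 28 days Cilp ran from 1.75 to 3.79 with a median of 2.97 in Ang II aortas, against 2.25, 0.26, 1.62, 0.87 and 2.47 in saline. Those ranges overlapped, as they did for all 8 genes at this time (1.04% of all genes had no overlap with Ang II higher), and the difference of 1.42 was not called (SE 0.38, adjusted p = 0.0656). The Cilp values of 14 and 28 days of Ang II did not overlap each other, those of 14 days being higher.

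Taking the groups of each gene in the order of their means, 43 of the 48 pairs of neighbouring groups had overlapping ranges. Neighbours in this order are the groups closest in mean, and no share over all genes was computed, so the count is a description only. The 5 that did not were Postn between 7 and 14 days of Ang II, Tnc between 7 days of Ang II and the dissected aortas, Cilp between 14 and 28 days of Ang II, Thbs1 between 14 days of Ang II and the dissected aortas, and Thbs2 between 14 days of Ang II and 28 days of saline.

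Scan day went with the level of several of these genes in saline aortas, and not in one direction. At 7 days the saline arrays of the first scan day were higher than those of the second for Tnc (means 0.23 and -0.93) and Sparc (1.19 and 0.01), as they were for Postn. At 28 days the order was the reverse for Fn1 (-2.43 on the first day and -1.37 on the second) and Postn (3.16 and 4.81). These 28-day means rest on 2 saline arrays of the first day and 3 of the second. Replicate 2, of the first day, and replicate 4, of the second, were arrays of narrow spread. Within the first scan day 5 of the 8 genes were called at 7 days, with differences of 2.47 for Cilp, 2.14 for Thbs2, 2.03 for Thbs1, 1.47 for Tnc and 1.33 for Sparc. The share of all genes called in that fit is not given here, so the count is a description only. Within the second day, with 1 Ang II array, the Cilp difference was 3.57. At 28 days the Fn1 difference was 2.25 within the first day and -0.49 within the second, and that of Postn was 1.42 and -0.92, none of them called.

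The change of the Ang II effect with time was tested as such. The difference between Ang II and saline was smaller at 14 than at 7 days for 7 of the 8 genes, yet 0 of the 8 were called for a difference among the 3 times, where 1.47% of all genes were. The lowest adjusted p of that test was 0.141, for Tnc, followed by 0.168 for Cilp, 0.218 for Sparc and 0.231 for Postn. None of the 8 was called between 14 and 7 days (1.02% of all genes), between 28 and 7 days (2.59%) or between 28 and 14 days (0% of all genes in limma's fit, with 7.18% at an unadjusted p under 0.05). The largest shifts from 7 to 28 days were -1.77 for Postn (adjusted p = 0.141) and -1.54 for Cilp (adjusted p = 0.117). Saline aortas showed no called change over time in any of the 8 (0.359% of all genes), and the lowest adjusted p was 0.267, for Cilp.

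The dissected aortas differed from the non-dissected ones in the same direction for all 8 genes. The fitted differences ran from -1.90 for Cilp to -0.21 for Thbs2, with a median of -1.28, against -0.000839 over all genes. Other lists shifted the same way in this comparison. The median was -1.24 for 14 matrix partners (4 called lower) and -1.16 for 10 smooth muscle markers (none called, highest -0.27). It was -0.81 for 16 TGF-β genes (3 called lower, 1 higher). Lists that went the other way included macrophage, platelet and endothelial markers, with medians of 0.34, 0.40 and 0.72. In 6 of the 8 genes every dissected array was below every non-dissected one, where 15% of all genes were. Probe by probe this held for 9 of the 17 probes and not for the other 8, and the share over all probes was not computed. The probe differences ran from -1.90 to 0.0434, and 1 of the 17, that of Cilp, was called lower (4.49% of all probes). The dimmer Thbs1 probes gave -0.18 each, and the second Thbs4 and Sparc probes -1.41 and -1.08. All 3 dissected arrays were scanned on the second day with 1 of the 4 non-dissected ones. Within that day the Cilp difference was -2.08 and was not called (adjusted p = 0.238), and with scan day as a term it was -1.69 (adjusted p = 0.0496). Against saline, 1 gene was called without and 4 with scan day as a term of the model (Thbs2, Tnc, Cilp and Sparc). The same 4 were called within the second day, at 2.25 for Thbs2, 1.61 for Tnc, 1.49 for Cilp and 1.46 for Sparc. Shares of all genes called in these scan-day fits are not given here, so both counts of 4 are a description only. Without overlap, 2 of the 8 genes were above saline in dissected aortas (Thbs1 and Thbs2), where 17.3% of all genes were.

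Markers of other cells moved with these groups. At 7 days of Ang II, 11 of 12 macrophage markers were called higher. The mean log2 ratio of all 12 per array was 1.75 to 2.53 in Ang II aortas, against -0.56 to 0.26 in saline. Of 12 fibroblast markers 7 were called higher. The mean of all 12 was 2.72 to 3.26 in Ang II aortas, against 0.80 to 2.61 in saline. Every member of both lists was above background on at least 1 array of both groups, while among dissected aortas the fibroblast marker Tcf21 was so on none. Of 12 nerve and neuroendocrine markers 6 were called lower, as were 2 of 12 fat markers, where 12.7% of all genes were. The count of fat markers was near that share. In dissected aortas all 12 macrophage markers were called higher than in saline, where 18.9% of all genes were. No fibroblast marker was called higher there and 1 was called lower, where 17.6% of all genes were called lower. The fibroblast mean was 1.67 to 2.25 in dissected aortas, against 2.72 to 3.26 in non-dissected ones. Of 11 platelet markers, 3 were called higher in dissected than in non-dissected aortas (Gp9, Pf4 and Treml1). The mean of all 11 was 1.25 to 1.99 in dissected aortas, against 0.06 to 0.69 in non-dissected ones. At 14 days, where Cilp was called, 2 of 12 macrophage markers were called higher, with a mean of 1.19 to 1.55 in Ang II aortas, against 0.01 to 1.09 in saline. At that time 4 of 8 kidney tubule markers were called lower, where 1.22% of all genes were: Lrp2 (-1.53), Cdh16 (-1.46), Slc22a6 (-0.99) and Slc34a1. Slc34a1 was not well above background on any Ang II array and was at least 2.15-fold lower (adjusted p = 0.04). The kidney mean was -0.20 to -0.00203 in Ang II aortas, against 0.00531 to 1.84 in saline, and with the fat, nerve and kidney scores as covariates the Cilp difference was 1.47 and was not called (adjusted p = 0.154). At 28 days, where Thbs1 was called, 6 of 12 macrophage markers were called higher, with a mean of 1.12 to 2.29 in Ang II aortas, against -0.27 to 0.79 in saline. The platelet genes Gp1ba and Gp5 were not well above background on any 7-day Ang II array, dissected or not. The part of these cells in the differences of the 8 genes was not tested.

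**Figure D3:**
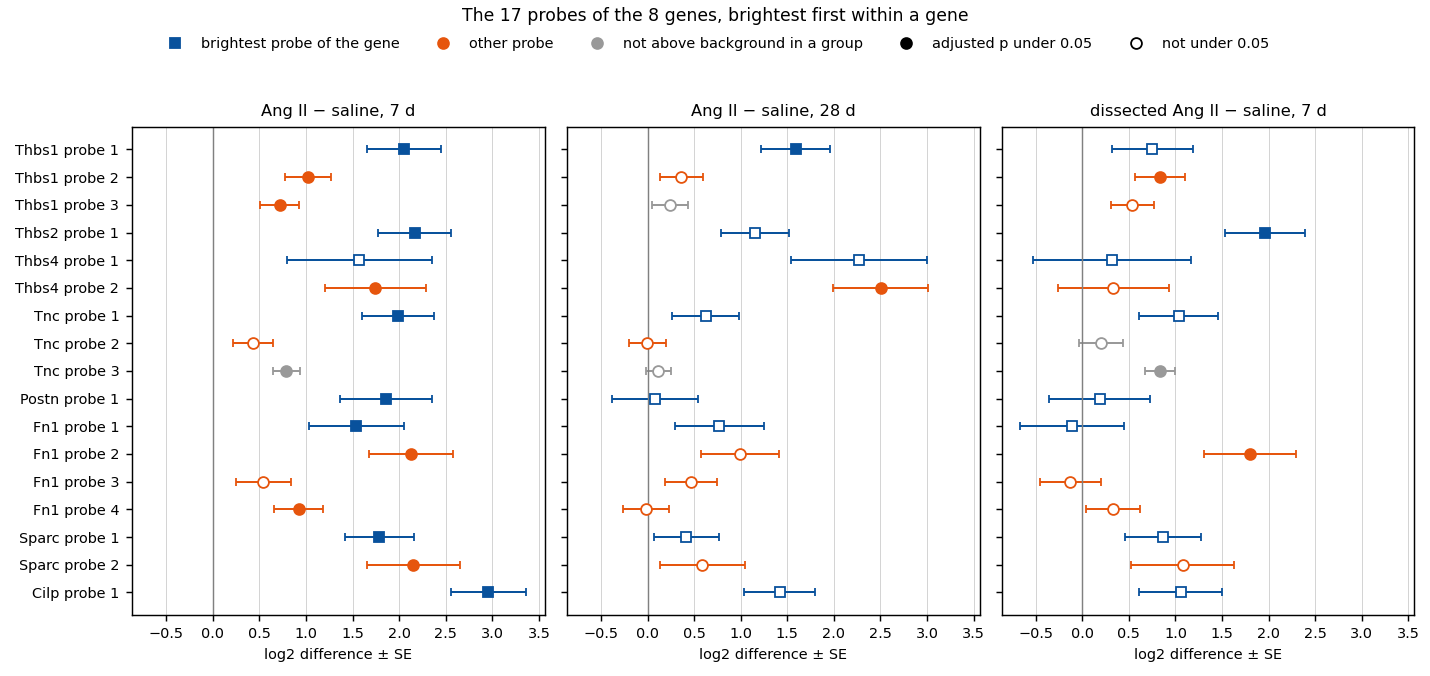
Log2 differences of the 17 probes of the 8 genes, with bars for 1 standard error, the brightest probe of each gene first. At 7 days 14 of the 17 probes are called higher in Ang II aortas, and the dimmer probes of Thbs1 and Tnc lie closer to 0 than the brightest ones. Grey points are probes not well above background on any array of one of the groups compared, such as Tnc probe 3 in saline aortas at 7 and 28 days, so their position is not a measured difference.

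Genes with several probes allowed a check within the array. Fitted among 27825 probes, 14 of the 17 were called higher at 7 days of Ang II (12.7% of all probes), 2 at 28 days (0.654%) and 4 in dissected aortas against saline (17.3%). The 3 probes not called at 7 days were the brightest for Thbs4, the second for Tnc (0.43) and the third for Fn1 (0.54). The Thbs1 probes gave 2.05, 1.02 and 0.72 at 7 days in order of brightness, and the 2 dimmer ones were well above background on 26 and 22 of the 35 arrays. The brightest Tnc probe gave 1.99 and the second 0.43, and the dimmer ones were well above background on 18 and 13 arrays. The third Tnc probe was so on all 4 Ang II arrays and on 0 of the 6 saline arrays at 7 days, which makes it at least 1.58-fold higher (adjusted p = 0.000229). In the dissected aortas this probe was well above background on 3 of 3 arrays and was called at least 1.62-fold above saline (adjusted p = 0.000121), while the brightest was not called. The counts of 14 and 4 include it. The second Thbs1 probe was also called there (0.83, SE 0.27, adjusted p = 0.0164).

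Protein relatives of the 8 genes formed a list of 13 tested genes. At 7 days 5 of the 13 were called higher and none lower, with a median of 0.55. Fstl1, a secreted member of the Sparc family, rose by 3.35 (SE 0.54, adjusted p = 5.44e-05), Comp, the cartilage oligomeric thrombospondin, by 2.39 (SE 0.53, adjusted p = 0.00143), and Thbs3 by 1.74 (SE 0.33, adjusted p = 0.000358). Tnn, tenascin W of the same family, was not well above background on any of the 6 saline arrays and was on all 4 Ang II arrays, which makes it at least 3.01-fold higher (adjusted p = 2.97e-05). Comp was also called at 14 days (1.77, SE 0.49, adjusted p = 0.0497), and no relative was called at 28 days. In dissected aortas 4 relatives were called above saline.

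Receptors of these proteins were mixed. Of 17 tested, 6 were called higher and 1 lower at 7 days, with a median of 0.34, where 14.5% of all genes were called higher and 12.7% lower. The scavenger receptor Stab1, which takes up Sparc, rose by 1.55 (SE 0.34), the endocytic receptor Lrp1, which clears thrombospondins, by 1.44 (SE 0.28), syndecan Sdc1 by 1.46 (SE 0.31) and the integrin subunit Itgb5 by 1.32 (SE 0.48). Cd36, the thrombospondin receptor also abundant in fat, fell by 1.53 on the log2 scale (SE 0.43, adjusted p = 0.0101). No receptor was called at 14 or 28 days. Against non-dissected aortas, 2 receptors were called lower in dissected ones, the integrin subunits Itgav (-1.65, SE 0.31, adjusted p = 0.00145) and Itgb1 (-1.39, SE 0.40, adjusted p = 0.0259), which were named after their values were seen.

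TGF-β genes, listed because thrombospondin 1 activates latent TGF-β and because TGF-β induces several of the 8, rose in 7 of 16 cases at 7 days, with a median of 0.66. The latent binding protein Ltbp2 rose by 2.23 (SE 0.35), Ccn2 by 2.20 (SE 0.74) and the ligand Tgfb2 by 1.59 (SE 0.40). Ltbp2 was the one gene of this list called at 14 days (1.35, SE 0.33, adjusted p = 0.0251) and at 28 days (1.67, SE 0.33, adjusted p = 0.00763).

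Matrix partners of the 8 genes, mostly collagens and the enzymes that mature them, were called higher in most cases at 7 days. Of 14 tested, 11 were called higher at 7 days with a median of 3.15, against 1.92 for the 8 genes and a value near 0 for all genes. Col1a1 rose by 4.56 (SE 0.65), Col3a1 by 3.81 (SE 0.56), Col1a2 by 3.80 (SE 0.66) and Col5a1 by 3.61 (SE 0.48), all chains of the fibrillar collagens. At 14 days 7 of the 14 were called, led by Col1a1 at 3.01 (SE 0.61), Col1a2 at 2.48 (SE 0.62), Col3a1 at 2.37 (SE 0.53) and Col5a1 at 1.71 (SE 0.45). None was called at 28 days, and the Ang II effect was called smaller at 28 than at 7 days for 8 of the 14. Proteases that cut these proteins were called higher in 5 of 9 cases at 7 days, among them the membrane-bound Mmp14 (3.19, SE 0.35), the collagenolytic cathepsin Ctsk (1.96, SE 0.47), Mmp2 (1.51, SE 0.35) and the plasminogen activator Plat (1.33, SE 0.36). At 14 days Mmp14 (1.70, SE 0.33) and Mmp2 (1.60, SE 0.33) were called, and at 28 days Ctsb (0.93, SE 0.21, adjusted p = 0.0196) was.

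**Figure D4:**
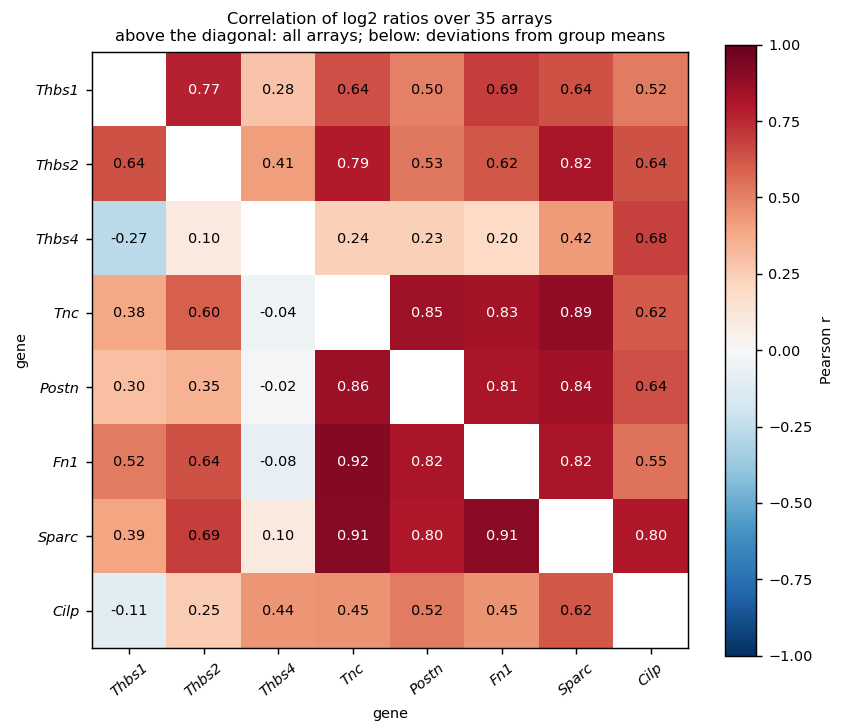
Pearson correlation of log2 ratios between pairs of the 8 genes over 35 arrays, with values from all arrays above the diagonal and values from deviations from the group means below it. Tnc, Postn, Fn1 and Sparc have values of 0.80 or more on both sides of the diagonal, and Thbs4 has values of 0.44 or less with every other gene once group means are removed.

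Across the 35 arrays the 8 genes varied together to different degrees. Tnc and Sparc correlated at 0.89 over all arrays and at 0.91 in deviations from the group means, Tnc and Fn1 at 0.83 and 0.92, and Fn1 and Sparc at 0.82 and 0.91. Thbs1 and Thbs2 correlated at 0.77 and 0.64. Thbs4 ran apart, with correlations to the other 7 of 0.20 to 0.68 over all arrays, the highest with Cilp, and of -0.27 to 0.44 within groups. These values describe arrays that share groups, scan days, tissue composition and the spread of ratios of each array, so they carry no test.

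The genes whose values over the 35 arrays were most like those of each of the 8, by Pearson correlation, included several collagen and other matrix genes. Sparc was followed by Col6a3 (0.97), Fstl1 (0.96) and Clec11a (0.96), Tnc by Cd109 (0.94), Scx (0.92) and Emilin1 (0.92), and Postn by Loxl1 (0.93), Nupr1 (0.93) and P3h3 (0.91). Fn1 was followed by Bgn (0.94), Fat1 (0.92) and Fam114a1 (0.91). Thbs2 was followed by an array transcript with no gene name (0.92), Col8a1 (0.92) and Bmp1 (0.92), and Cilp by an unnamed transcript (0.91), Fndc1 (0.90) and Wnt2 (0.88). Thbs1 and Thbs4 had no such close companion: the nearest to Thbs1 were Cx3cl1 (0.81), Ltbp2 (0.80) and Col12a1 (0.80), and the nearest to Thbs4 were Lrrn2 (0.78), Dkk2 (0.72) and Rflna (0.72).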

How the data were processed

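Each sample was 1 suprarenal aorta on 1 two-colour Agilent array. The p-values therefore rest on the spread between arrays of different animals, in which animal, array, slide and scan day cannot be told apart. Per the file headers, the authors deposited Agilent Feature Extraction output (version 9.5.3.1, per the submitters' processing notes) with the mean and background intensity of 45018 spots. The deposited series table holds log2 ratios: regressed on the log10 ratio of the scanner files it has slopes of 3.32 to 3.34, and its column medians lie between -0.0675 and 0.109. Whether it was further centred is not given in the sources used here. Aorta was red (Cy5) on every array, without dye swap.

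Intensities were background-corrected (normexp, offset 50) and loess-normalised within arrays in R 4.3.3 with limma 3.58.1. Control spots had no weight, and flagged spots were left out. Spots of a probe were averaged. A gene was its probe with the highest mean aorta intensity once probes had been kept whose aorta signal passed the scanner's background test on 3 or more arrays; 18672 genes were tested. limma's lmFit and eBayes fitted 7 group means over all 35 arrays, with 28 residual degrees of freedom. Benjamini-Hochberg adjustment covered all genes, and an adjusted p under 0.05 is a call. In simulated data with the 7-day group sizes, 100 of 18672 genes were changed by 1 or by 2 on the log2 scale. Of those changed by 1, 80% were recovered, and of those changed by 2, 93%. In the real comparison 27.2% of all genes were called, so these rates need not hold there or for other group sizes. Array correlations were 0.519 to 0.964, and no arrays were duplicates.

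Gene symbols came from RefSeq's accessions for 24375 probes, from a current symbol for 6301, from an older symbol for 2426 and from the array file for 8072. Members, gene lists and tests were chosen with earlier results of these data known. Genes outside the 8 are named by rule: from each list of relatives, receptors, TGF-β genes, partners and proteases the 4 largest rises and 2 largest falls called at 7 days and the 4 largest calls at 14 or 28 days, and for each of the 8 genes the 3 with the highest correlation. One gene that this rule names is not reported here.

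Same-numbered replicates were compared by the correlation of their deviations from group means. Dissected and saline aortas at 7 days correlated at 0.50, 0.50 and 0.13, all over 0.1, and were counted as paired by that check alone. Other pairs were not. These are different animals, no label pairs them, and the arrays compared were scanned on different days. The main fit used no pairing. The alternatives varied background, normalisation, filter, probe, block, scan day, weights, covariates and arrays left out. The precision is limited by 3 to 6 arrays per group.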

Additional observations from a re-analysis of the deposited data

Results flagged for a closer look

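Among the 48 sets of values of 8 genes in the 6 groups of 4 to 6 arrays, 2 had an extreme array by Dixon's test at the 95% level, and chance alone flags about 1 in 20. Thbs4 in 28-day Ang II replicate 4 was 1.22, below the other 5 arrays of its group, which lay between 4.10 and 5.46, and inside the 28-day saline range. Fn1 in 14-day Ang II replicate 5 was -2.29, below the other 4 arrays of its group, which lay between -1.35 and -1.03. No cause of either was tested.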

How the results depend on the processing

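Results were recomputed under 55 alternatives, 35 of them leaving out 1 array each. Of 2608 single-gene values, 2472 kept their direction and side of the threshold, 69 lost and 65 gained a call, and 2 reversed. Both reversals were Postn with scale normalisation, which stretches the 3 arrays of narrow spread and compresses the wide one: -5.48 at 28 days (adjusted p = 0.0315) and -1.33 averaged over the times (adjusted p = 0.345). Values never called changed sign in 43 cases.

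Counts of called genes among the 8 are given where they moved, with the cause not tested. Calls over all genes also changed with the setting and are given below for some settings at 7 days only. The counts therefore do not show whether the 8 moved apart from all genes. Scale normalisation gave 2 at 7 days, 0 at 14 days, 3 at 28 days, 5 averaged over the times, 0 for dissected against saline, 0 for dissected against non-dissected and 3 for saline over time. The second scan day alone gave 1, 0, 0, 2, 4 and 0 for the first 6 of these, and the first alone 0 at 14 and 0 at 28 days. Median centring gave 0 at 14 days, 0 at 28 days and 6 for dissected against non-dissected. Array weights gave 5 for dissected against saline, 5 for dissected against non-dissected and 2 each for 14 against 7 days, 28 against 7 days and among times. An offset of 10 gave 0 at 14 days, 3 for dissected against saline and 0 for dissected against non-dissected, and the deposited table and the scanner ratios each gave 0, 4 and 0. No background subtraction gave 2 for dissected against saline and 1 for 28 against 7 days. For dissected against saline, a stricter filter, the mean of all probes, the compared groups alone and slide as a fixed effect gave 2, and scan day as a term 4. For dissected against non-dissected, the compared groups alone gave 5, slide 0, and the fit without the 4 arrays of unusual spread, chosen after seeing the data, 2. At 28 days the compared groups alone and the fit without those 4 arrays gave 0, slide 2 and tissue scores 2, and tissue scores gave 0 at 14 days. The replicate block gave 2 for dissected against non-dissected, where the numbers do not pair the arrays, and kept 1 (Thbs2, 1.73) for dissected against saline.

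Leaving out 1 array gave 6 to 7 at 7 days, 0 to 1 at 14 days, 0 to 3 at 28 days, 8 averaged over the times, 1 to 3 for dissected against saline, 0 to 2 for dissected against non-dissected, 0 to 1 for 14 against 7 days, 0 to 2 for 28 against 7 days and 0 for the others. Fn1 at 7 days was also not called without the 4 arrays (1.34, adjusted p = 0.0619), and with adipocyte, neural and kidney scores as covariates neither Fn1 (0.82) nor Postn (1.60) was, while Thbs4 was (2.83). Over all genes, calls at 7 days numbered 5080, 1564 with median centring, 974 with scale normalisation, 2248 with tissue scores, 3216 with slide and 7937 with array weights.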

Other observations

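Division genes and nerve genes also moved at 7 days of Ang II. All 10 cell cycle genes listed were called higher in non-dissected Ang II aortas than in saline, with a median of 1.80, led by the proliferation marker Mki67 at 3.16 and by Birc5, a protein of dividing cells, at 2.84. At 28 days 0 of the 10 were called in limma's fit, with a median of 0.15, and the Ang II effect was called smaller at 28 than at 7 days for 9 of the 10. Of 12 nerve and neuroendocrine genes 6 were called lower at 7 days, where 12.7% of all genes were, led by the secretory granule proteins Chgb at -3.88 and Chga at -2.79. The platelet gene Pf4 was called higher in dissected aortas than in saline by 4.30 (SE 0.50). These lists and names were chosen after earlier results were seen.

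Ranked by Spearman correlation in place of Pearson over the 35 arrays, the 3 genes nearest to Sparc and the 3 nearest to Postn were the same, whereas for Thbs1 they were Col12a1 (0.86), Pdia5 (0.84) and Sdc1 (0.84).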
